A study of Homo sapiens with 18 samples.

Results

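The transcripts examined here are the spliced RNAs of 7 noncoding genes that host small nucleolar RNAs (snoRNAs) in their introns: SNHG1, SNHG5, SNHG7, SNHG8, SNHG12, GAS5 and ZFAS1. Every array probe annotated to 1 of these symbols was taken, which gave 11 of the 43961 probes on the array and 7 of the 19782 named genes. They were measured on 18 single-colour Illumina bead arrays, 3 in each of 6 groups, with total RNA from cells labelled HepG2, a human line from a hepatocellular carcinoma. Cells had been transfected with scramble siRNA, with siRNA labelled si-PSTAR (against PSTAR, a long noncoding RNA) or with siRNA labelled si-hnRNP K (against hnRNP K, an RNA-binding protein). Each siRNA was used in cells left untreated and in cells given 400 nM DOX (doxorubicin, a DNA-damaging topoisomerase poison). The sources differ on the exposure: the design text gives 16 h and the treatment protocol 8 or 16 h, without saying which samples had which. All 6 groups therefore had been transfected. Nothing in the labels states that a group's 3 arrays were independent cultures. Each p-value is therefore set by array-to-array spread that could be technical.

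snoRNAs guide the chemical modification of ribosomal RNA: box C/D snoRNAs direct ribose methylation and box H/ACA snoRNAs direct pseudouridylation. In vertebrates most are cut out of the introns of host genes, and in the noncoding hosts the spliced exons encode no known protein. Many of these hosts start with a terminal oligopyrimidine tract, the short pyrimidine run that also opens ribosomal protein transcripts, and their spliced RNAs are often degraded by nonsense-mediated decay, so the spliced RNA and the snoRNA can reach different steady levels. GAS5 was found as an RNA that builds up in growth-arrested cells for that reason, and SNHG1, SNHG7, SNHG12 and ZFAS1 have often been studied as RNAs raised in tumours, including those of the liver.

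The 5′ ends of the 7 genes are printed because the oligopyrimidine start is the feature for which this class of host is known. Each line gives 100 bases of RefSeq sequence (build GRCh38.p14), 60 before the annotated start and 40 from it on, 5′ to 3′ on the gene's own strand. Capitals mark the letters TATAA in the 50 bases before the start and runs of at least 6 C or T letters from 10 bases before the start to base 30 after it.
SNHG1 (chr11:62855846-62855945, minus strand): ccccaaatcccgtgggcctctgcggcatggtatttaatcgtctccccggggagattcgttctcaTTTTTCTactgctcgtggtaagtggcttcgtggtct
SNHG5 (chr6:85678694-85678793, minus strand): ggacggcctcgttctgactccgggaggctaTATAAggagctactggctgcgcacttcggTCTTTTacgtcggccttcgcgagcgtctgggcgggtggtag
SNHG7 (chr9:136728145-136728244, minus strand): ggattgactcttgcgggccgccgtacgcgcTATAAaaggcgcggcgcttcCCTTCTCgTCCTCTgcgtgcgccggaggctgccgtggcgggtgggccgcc
SNHG8 (chr4:118278702-118278801, plus strand): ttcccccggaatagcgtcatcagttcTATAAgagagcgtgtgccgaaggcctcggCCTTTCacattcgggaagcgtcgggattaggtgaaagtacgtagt
SNHG12 (chr1:28581834-28581933, minus strand): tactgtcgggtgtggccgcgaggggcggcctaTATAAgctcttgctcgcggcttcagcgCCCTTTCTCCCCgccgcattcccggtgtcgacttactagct
GAS5 (chr1:173869006-173869105, minus strand): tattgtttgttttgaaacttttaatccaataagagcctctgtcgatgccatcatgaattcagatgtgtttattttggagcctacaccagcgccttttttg
ZFAS1 (chr20:49278582-49278681, plus strand): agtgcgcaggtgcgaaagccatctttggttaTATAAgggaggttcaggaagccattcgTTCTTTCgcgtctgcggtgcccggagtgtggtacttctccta

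TATAA stood on the gene's own strand in 5 of the 7 windows, those of SNHG5, SNHG7, SNHG8, SNHG12 and ZFAS1, with its first T at positions -34 to -28 relative to the start. The same 50-base window held it in 4.74% of 35116 RefSeq promoters on the sense strand and in 6.08% on either strand. A run of C or T letters near the start was found in 6 of 7, all but GAS5, and in 36% of all promoters. For SNHG12 and ZFAS1 the table's start lies inside the annotated span of the gene, so other starts exist. Only 1 annotated start was read for each gene, so the lack of a run in the GAS5 window does not show that GAS5 transcripts lack one. The windows and letters were chosen after reading the sequences, and a match is a description of the letters only.

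The deposited log2 intensities had a median of 5.73 in every array, and 21981 probes with a mean at or above 5.72 were tested. HNRNPK, a target named by the labels, went against them: its brightest probe averaged 11.72 and 11.95 in scramble arrays (without and with DOX), 8.44 and 8.32 in arrays labelled si-PSTAR, and 11.55 and 11.36 in arrays labelled si-hnRNP K. It was thus 9.73-fold (untreated) and 12.4-fold (DOX) lower in the arrays labelled si-PSTAR, and in those labelled si-hnRNP K it was lower by 0.17 (adjusted p = 0.254) and 0.59 (adjusted p = 6.86e-05) on the log2 scale. Groups are therefore called by their labels throughout. The labelled cell type was not borne out by its defining genes: only 3 of 12 hepatocyte markers with a probe exceeded the median probe, the brightest being ALB (albumin) at a mean of 7.41, with AFP and APOA1 at 5.56 and 5.49, whereas 4 of 5 fibroblast markers exceeded it, led by DCN (decorin) at 8.47. Leukocyte and endothelial markers exceeded it in 2 of 4 each. By the same measure, the brightest probe, 12483 of all 19782 named genes reached it. The counts of so few fibroblast, leukocyte and endothelial genes therefore name no other cell type. ALB was highest in the arrays labelled si-hnRNP K (8.60 untreated and 8.69 with DOX, against 6.47 to 6.94 elsewhere). The fibroblast markers did not move together: DCN was highest in the arrays labelled si-PSTAR (9.84 and 10.06, against 6.46 to 8.86 elsewhere). COL3A1 (type III collagen) was instead highest in untreated scramble arrays (9.23) and lowest in untreated si-PSTAR arrays (7.17), and COL1A1 (type I collagen) was lowest in si-PSTAR arrays with DOX (7.18). Of the 4 tested, 2 were higher and 2 lower under the si-PSTAR label with DOX. The part of these marker differences in the results below was not tested.

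The arrays formed 2 separate clusters that touch the comparisons below. The 6 untreated arrays of the scramble and si-hnRNP K labels made 1 cluster, with correlations of at least 0.986 among them, and the other 12 arrays made the second, with correlations of at least 0.973. No array of one cluster correlated above 0.963 with an array of the other. Among 1169 genes with 2 bright probes, the differences read by both probes correlated at 0.76 to 0.86 across genes in the comparisons of siRNA groups within a cluster. In DOX against untreated arrays labelled si-PSTAR, also within a cluster, this correlation was 0.56. It was 0.23 to 0.30 in the 3 comparisons across clusters, which are si-PSTAR against scramble in untreated cells and DOX against no DOX in the scramble and si-hnRNP K arrays. Where both probes of a gene were called, they were called in opposite directions in 26.2% to 28.7% of such genes across clusters and in 0% to 6.59% within them. Cluster and group cannot be told apart in those 3 comparisons, and the within-cluster comparisons are given first.

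**Figure D1:**
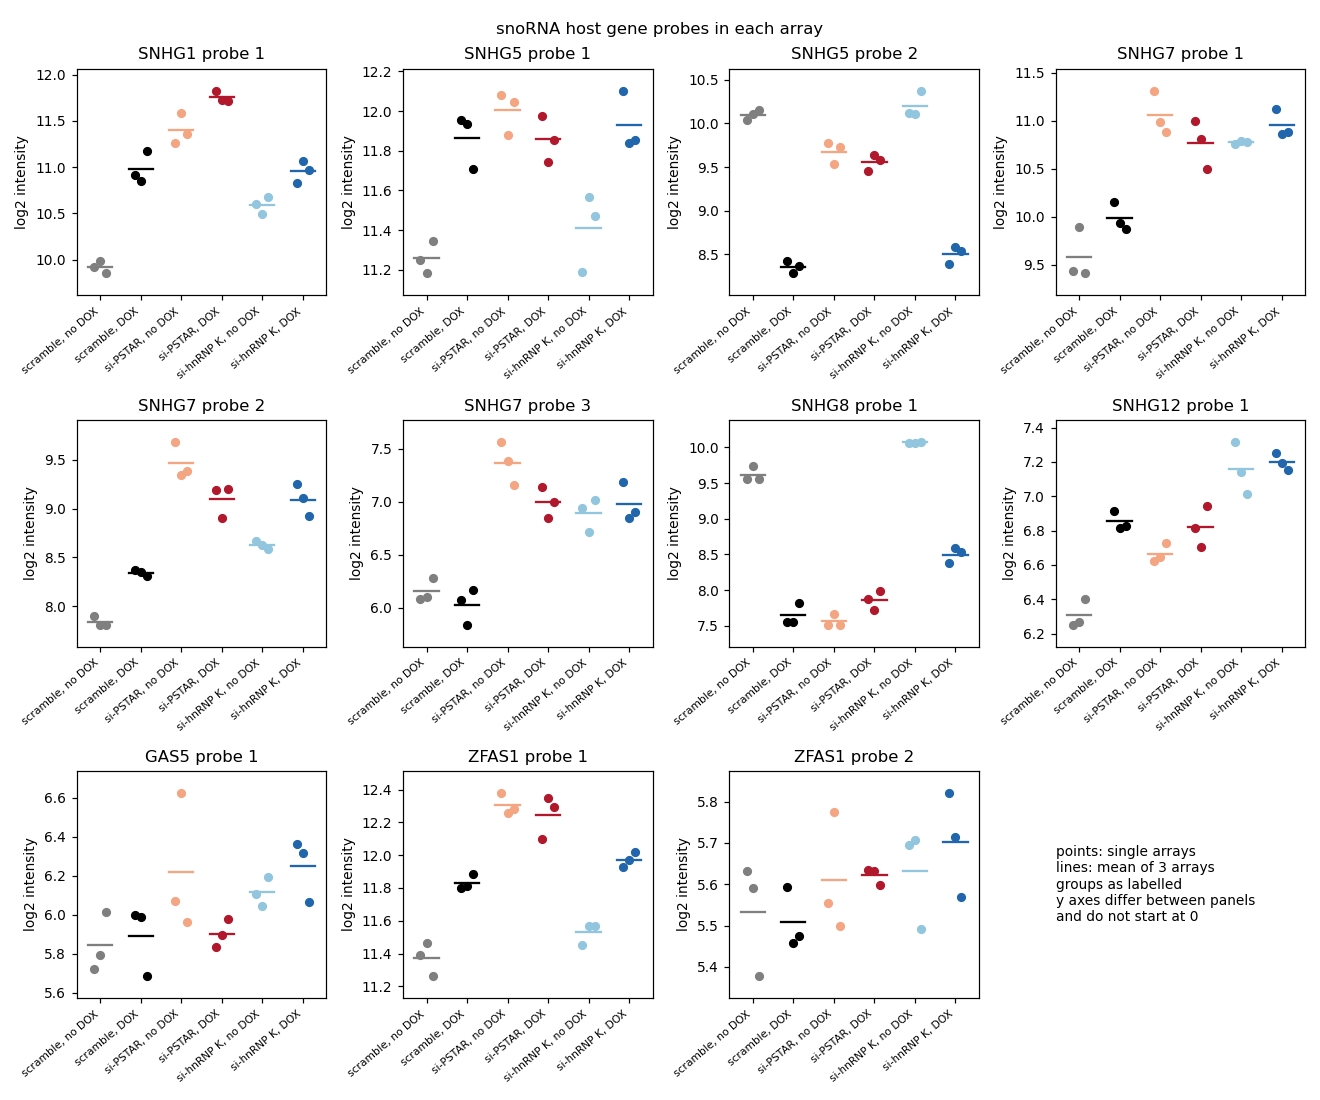
Log2 intensity (y axis) of each of the 11 probes in each array, by labelled siRNA and DOX (x axis); points are single arrays and lines the mean of 3. SNHG7 sits above all scramble arrays in all 12 siRNA-labelled arrays, SNHG8 and the second SNHG5 probe are split between untreated and DOX arrays in the scramble and si-hnRNP K labels, and the second ZFAS1 probe stays between 5.38 and 5.82.

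Of the 11 probes, 10 were bright enough to be tested, and they covered all 7 genes. The second ZFAS1 probe (ILMN_3233010) averaged 5.60, read 5.38 to 5.82 over all arrays and was not tested. The GAS5 probe (ILMN_1754378) averaged 6.04, just inside the limit, and stayed between 5.69 and 6.62. The others averaged 6.73 (the third SNHG7 probe) to 11.88 (the first ZFAS1 probe). A lower intensity in such bulk RNA cannot separate fewer cells with a transcript from less of it in each cell.

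Between the arrays labelled si-PSTAR and scramble, both with DOX, 6 of the 10 probes were higher and 0 lower, against 20.1% and 18.4% of all tested probes. Those were the probes of SNHG1, SNHG7 (all 3), ZFAS1 and the second SNHG5 probe. The median difference over the 10 probes was 0.59 on the log2 scale, beside 0.02 over all tested probes. SNHG7 enters this count and median with 3 probes and SNHG5 with 2, so both weight these genes more than the others. The second SNHG5 probe is counted at 1.20, although the brighter first probe was at -0.01. By the brightest probe of each gene, 3 of 7 genes were higher and 0 lower, against 21.6% and 22.2% of named genes. Probe counts and medians in the later comparisons carry the same weighting. For the si-hnRNP K label against scramble with DOX, 6 were again higher and 0 lower, against 17.1% and 15.7% of all probes, but they were those of SNHG7 (all 3), SNHG8, SNHG12 and GAS5. The median was 0.35 over the 10 probes and -0.0002 over all. By brightest probes, 4 of 7 genes were higher here and 0 lower, against 19.0% of named genes in each direction. In untreated cells, arrays labelled si-hnRNP K exceeded scramble for 6 probes, with 0 lower, against backgrounds of 13.8% and 13.4%. These belonged to SNHG1, SNHG7 (all 3), SNHG8 and SNHG12, and the median was 0.56 beside 0.00296 over all tested probes. Counted by brightest probes, 4 of 7 genes were higher and 0 lower, against 16.2% and 15.7% of named genes. The comparisons with the same DOX state share their 3 scramble arrays, so they are not independent of each other.

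**Figure D2:**
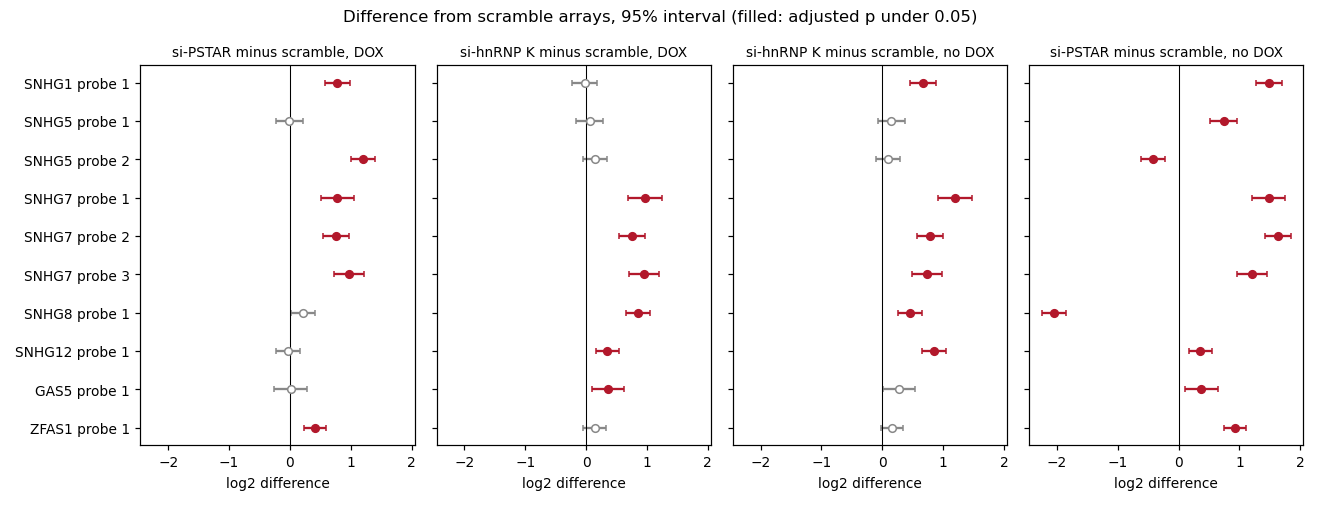
Log2 difference (x axis, with 95% interval) of each tested probe (y axis) between arrays of each siRNA label and scramble; filled red points have an adjusted p under 0.05. All 3 SNHG7 probes lie right of 0 in the 4 panels, and SNHG8 lies at 0.85 and 0.45 under the si-hnRNP K label but at -2.05 in untreated si-PSTAR arrays, a comparison across array clusters.

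SNHG7, host of the H/ACA snoRNAs SNORA17A and SNORA17B, was higher in every siRNA-labelled group than in scramble, by all 3 of its probes. Its brightest probe (ILMN_3227023) read 9.43, 9.89 and 9.41 in untreated scramble arrays and 10.16, 9.94 and 9.87 with DOX. In arrays labelled si-PSTAR it read 11.31, 10.98 and 10.88 untreated and 11.00, 10.81 and 10.49 with DOX. The arrays labelled si-hnRNP K read 10.75, 10.79 and 10.78 untreated and 11.12, 10.87 and 10.88 with DOX. All 12 siRNA-labelled arrays therefore lay above all 6 scramble arrays, which held for 3 of the 10 probes, the 3 of SNHG7, and for 2.58% of all tested probes. The second probe (ILMN_3233229), which is annotated to another RefSeq transcript than the other two, averaged 7.84 ± 0.05 (SD, n = 3) in untreated scramble arrays and 8.34 ± 0.03 with DOX. Its means were 9.47 ± 0.19 and 9.10 ± 0.17 under the si-PSTAR label and 8.63 ± 0.04 and 9.09 ± 0.16 under the si-hnRNP K label, each without and with DOX. The third and dimmest probe (ILMN_3233205) averaged 6.16 ± 0.11 and 6.03 ± 0.17 in scramble arrays and between 6.89 and 7.37 in the siRNA-labelled groups.

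With DOX, SNHG7 differed from scramble by 0.78 ± 0.13 (SE, adjusted p = 3.06e-05), 0.76 ± 0.10 and 0.97 ± 0.12 on the log2 scale in the arrays labelled si-PSTAR, for its 3 probes in turn. In the arrays labelled si-hnRNP K the differences were 0.97 ± 0.13 (adjusted p = 2.04e-06), 0.75 ± 0.10 and 0.95 ± 0.12. These correspond to 1.68-fold to 1.96-fold higher intensity. Between the siRNA labels with DOX the 3 probes differed by 0.19, -0.01 and -0.02, with 95% intervals of -0.09 to 0.46, -0.22 to 0.21 and -0.26 to 0.23, and none was called. In untreated cells the si-hnRNP K label exceeded scramble by 1.20, 0.79 and 0.73. The untreated si-PSTAR label, across clusters, exceeded it by 1.48, 1.63 and 1.21. In the order of levels of the brightest probe, no neighbours among the 4 siRNA-labelled groups passed the test, while the lowest of them exceeded scramble with DOX. The other probes did separate some of these groups. Untreated si-PSTAR exceeded si-PSTAR with DOX by 0.37 on the second (adjusted p = 0.0172) and on the third probe (adjusted p = 0.0359). On the second, si-hnRNP K with DOX exceeded it untreated by 0.47 (adjusted p = 4.79e-04), across clusters.

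SNHG1, host of the box C/D snoRNAs SNORD22 and SNORD25 to SNORD31, was highest under the si-PSTAR label. Its probe (ILMN_3236713) read 9.92, 9.98 and 9.85 in untreated scramble arrays and 10.91, 10.86 and 11.17 with DOX. Under the si-PSTAR label it read 11.26, 11.59 and 11.36 untreated and 11.83, 11.73 and 11.72 with DOX. Under the si-hnRNP K label it read 10.60, 10.49 and 10.67 untreated and 10.83, 11.07 and 10.97 with DOX. With DOX the si-PSTAR arrays did not overlap scramble and were 1.72-fold higher, by 0.78 ± 0.10 on the log2 scale (adjusted p = 6.13e-07). The si-hnRNP K arrays overlapped scramble with DOX, at a difference of -0.02 (95% interval -0.23 to 0.19, adjusted p = 0.899). Set against each other with DOX, the si-hnRNP K label was lower than the si-PSTAR label by 0.80 ± 0.10 (adjusted p = 3.70e-07). Untreated, the si-hnRNP K label exceeded scramble by 0.67 ± 0.10 and the si-PSTAR label did so by 1.48 ± 0.10 across clusters. In the order of the 6 levels, all neighbours passed the test but scramble and si-hnRNP K with DOX.

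The start of SNHG1 lies 224 bases from that of SLC3A2, which runs the other way and encodes the heavy chain of amino acid transporters at the cell surface. For the other 6 hosts, no gene on the other strand had a start within 5000 bases upstream of the host start used here. Pairs that overlap head to head and other annotated starts were not searched, so divergent neighbours of these hosts are not excluded. SLC3A2 averaged 11.17 and 11.45 in scramble arrays (untreated and DOX), 12.13 and 12.12 under the si-PSTAR label, and 11.79 and 11.82 under the si-hnRNP K label. Like its neighbour it was higher under the si-PSTAR label with DOX, by 0.67 ± 0.09 (adjusted p = 1.06e-06). Under the si-hnRNP K label with DOX it was higher by 0.37 ± 0.09 (adjusted p = 0.00214), where SNHG1 was not called. With DOX in scramble arrays SLC3A2 was higher by 0.28 and SNHG1 by 1.06.

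ZFAS1, host of SNORD12, SNORD12B and SNORD12C and named for its position beside the zinc finger gene ZNFX1, was higher only under the si-PSTAR label among the siRNA comparisons. Its bright probe (ILMN_3188984) read 11.39, 11.47 and 11.26 in untreated scramble arrays and 11.80, 11.81 and 11.88 with DOX. The si-PSTAR arrays read 12.38, 12.26 and 12.28 untreated and 12.10, 12.35 and 12.29 with DOX. The si-hnRNP K arrays read 11.45, 11.57 and 11.57 untreated and 11.93, 11.97 and 12.02 with DOX. The si-PSTAR arrays were the highest in both states and did not overlap any other label. With DOX they exceeded scramble by 0.42 ± 0.09 (adjusted p = 4.71e-04) and untreated by 0.93 ± 0.09. The si-hnRNP K label differed from scramble by 0.14 with DOX (95% interval -0.04 to 0.32) and by 0.16 untreated (-0.03 to 0.34), neither of them called. With DOX the si-hnRNP K label was lower than the si-PSTAR label by 0.27 ± 0.09 (adjusted p = 0.0166), a call lost without 1 of 3 single arrays in turn (si-PSTAR with DOX replicates 2 or 3, or si-hnRNP K with DOX replicate 1), with adjusted p from 0.0533 to 0.0856.

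SNHG8, host of the H/ACA snoRNA SNORA24, had the widest spread of group means of the 10 tested probes, and its levels were split by cluster. Its probe (ILMN_3309349) read 9.56, 9.73 and 9.56 in untreated scramble arrays and 7.56, 7.55 and 7.82 with DOX. For the si-hnRNP K label the values were 10.06, 10.07 and 10.08 untreated and 8.38, 8.58 and 8.53 with DOX. For the si-PSTAR label the values were 7.51, 7.67 and 7.52 untreated and 7.87, 7.72 and 7.99 with DOX. The 6 arrays of the first cluster are thus all above 9.5 and the 12 others all below 8.6. Within clusters the si-hnRNP K label exceeded scramble by 0.85 ± 0.10 with DOX (1.81-fold, adjusted p = 1.06e-07) and by 0.45 ± 0.10 untreated (adjusted p = 7.26e-04), with no overlap in either. The si-PSTAR label with DOX differed from scramble by 0.21 ± 0.10 and was not called (adjusted p = 0.0899). It was called without scramble with DOX replicate 3 (difference 0.30, adjusted p = 0.0243) and without si-PSTAR with DOX replicate 2 (0.28, adjusted p = 0.0407).

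SNHG12, host of SNORA16A, SNORA61 and SNORD99, was highest under the si-hnRNP K label. Its probe (ILMN_3249059) read 6.25, 6.27 and 6.40 in untreated scramble arrays and 6.92, 6.82 and 6.83 with DOX. Arrays labelled si-hnRNP K read 7.32, 7.14 and 7.01 untreated and 7.25, 7.20 and 7.15 with DOX. Arrays labelled si-PSTAR read 6.62, 6.65 and 6.73 untreated and 6.81, 6.71 and 6.94 with DOX. All 6 arrays labelled si-hnRNP K lay above the other 12. The difference from scramble was 0.85 ± 0.09 untreated (1.80-fold, adjusted p = 5.40e-08) and 0.35 ± 0.09 with DOX (1.27-fold, adjusted p = 0.00455). The si-PSTAR label with DOX differed from scramble by -0.03 (95% interval -0.22 to 0.16). Its untreated difference of 0.36, across clusters, was 0.06 (adjusted p = 0.601) after cyclic loess scaling.

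SNHG5 hosts the box C/D pair SNORD50A and SNORD50B, and its 2 probes did not move together. The first probe (ILMN_2200659) read 11.25, 11.18 and 11.34 in untreated scramble arrays and 11.96, 11.94 and 11.71 with DOX. It read 11.19, 11.57 and 11.47 untreated and 12.10, 11.84 and 11.85 with DOX under the si-hnRNP K label, and 11.75 to 12.08 in the 6 arrays labelled si-PSTAR. The first probe was thus low in the untreated scramble and si-hnRNP K arrays and high in the 12 others. The second probe (ILMN_1653794) was high in the former, at 10.04, 10.11 and 10.16 for scramble and 10.12, 10.11 and 10.38 for si-hnRNP K. With DOX it read 8.43, 8.28 and 8.37 in scramble arrays and 8.39, 8.59 and 8.54 under the si-hnRNP K label. Under the si-PSTAR label it read 9.77, 9.53 and 9.73 untreated and 9.46, 9.64 and 9.58 with DOX, between these levels. The gap between the probes was 1.16 and 1.21 on the log2 scale in the first cluster's groups, 2.33 and 2.30 under the si-PSTAR label, and 3.51 and 3.42 with DOX in the scramble and si-hnRNP K arrays. Within the second cluster, with DOX, the si-PSTAR label exceeded scramble by 1.20 ± 0.10 on the second probe (2.30-fold, adjusted p = 1.30e-10) and differed by -0.01 (95% interval -0.23 to 0.21) on the first. No SNHG5 direction is therefore given for that comparison or for the comparisons across clusters. The si-hnRNP K label was not called against scramble on either probe, at 0.06 and 0.15 with DOX and 0.15 and 0.10 untreated.

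GAS5, host of a series of box C/D snoRNAs, was too dim here for firm values. Its probe read 5.72, 5.80 and 6.01 in untreated scramble arrays, 6.0, 5.99 and 5.69 with DOX, 6.11, 6.05 and 6.19 in untreated si-hnRNP K arrays and 6.36, 6.32 and 6.07 in those with DOX. Under the si-PSTAR label it read 6.07, 6.62 and 5.96 untreated and 5.84, 5.89 and 5.98 with DOX. No neighbours in the order of the 6 group means passed the test. With DOX the si-hnRNP K label exceeded scramble by 0.36 ± 0.13 (adjusted p = 0.0351), a call lost without scramble with DOX replicate 3 (adjusted p = 0.190), without si-hnRNP K with DOX replicate 1 (0.130) or 2 (0.109), and in a fit to the 12 arrays of the second cluster (0.0628). The untreated si-PSTAR label exceeded scramble by 0.38 (adjusted p = 0.0139) with overlapping arrays, and by 0.17 (adjusted p = 0.205) without its replicate 2. The call was also lost without untreated scramble replicate 1 (adjusted p = 0.0693), with only the compared arrays in the fit (0.0577) and after cyclic loess (0.0642).

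With DOX, the si-hnRNP K and si-PSTAR labels could be compared directly within a cluster. The si-hnRNP K label was higher for 3 probes (SNHG8, SNHG12 and GAS5) and lower for 3 (SNHG1, the second SNHG5 probe and ZFAS1), against 18.3% and 18.4% of all tested probes. SNHG8 differed by 0.64 ± 0.10 (adjusted p = 6.46e-06) and SNHG12 by 0.38 ± 0.09 (adjusted p = 0.00178). The second SNHG5 probe differed by -1.06 ± 0.10. The brighter first SNHG5 probe was at 0.07 and not called (adjusted p = 0.652), so SNHG5 is given no direction here either. GAS5 differed by 0.35 ± 0.13 (adjusted p = 0.0384), and that call was lost without any 1 of 4 arrays in turn (replicates 1 and 2 of either label, adjusted p from 0.0825 to 0.139), without the filter on dim probes (0.0514) and in the 12-array fit (0.0663).

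The untreated si-PSTAR label against untreated scramble, across clusters, had 8 probes higher and 2 lower, against 39.7% and 24.3% of all tested probes. The lower ones were SNHG8, at -2.05 ± 0.10, and the second SNHG5 probe, at -0.42 ± 0.10, while the first SNHG5 probe was higher by 0.74. The median was 0.84 beside 0.13 over all tested probes. Cyclic loess shifted the median of all tested probes by -0.13 here, by -0.15 in DOX against untreated scramble and by -0.13 in DOX against untreated si-hnRNP K. The share of all calls that were higher went from 62.0% to 43.7%, from 69.3% to 42.7% and from 68.2% to 39.8% in the same order. Smaller differences of host genes across clusters carry that shift.

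**Figure D3:**
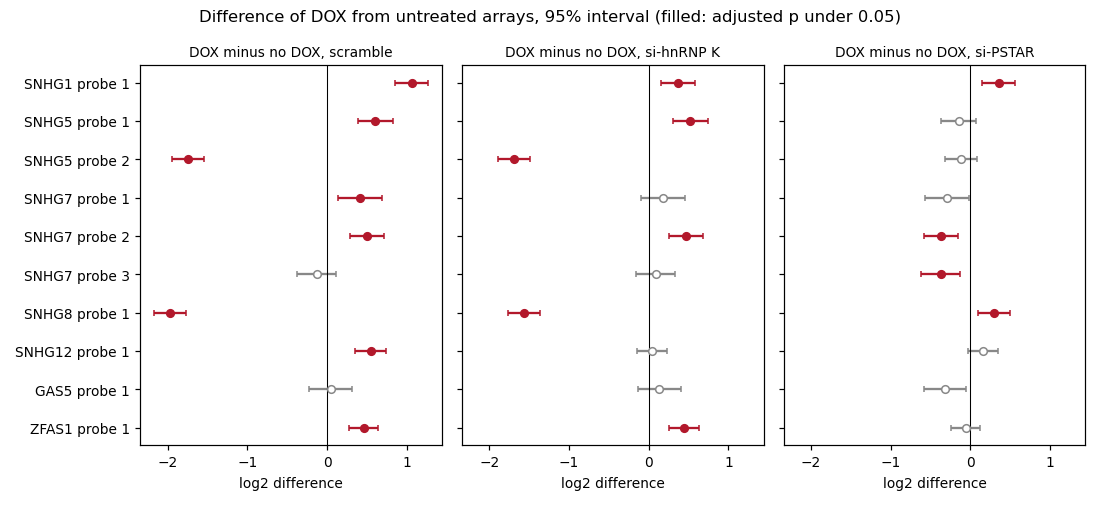
Log2 difference between DOX and untreated arrays (x axis, with 95% interval) for each tested probe (y axis) under the scramble, si-hnRNP K and si-PSTAR labels; filled red points have an adjusted p under 0.05. SNHG8 and the second SNHG5 probe lie between -1.57 and -1.97 in the first 2 panels, which cross the array clusters, and at 0.29 and -0.11 in the third.

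DOX in scramble cells went with 6 host gene probes higher and 2 lower, against 42.0% and 18.6% of all tested probes. SNHG1 was higher by 1.06 ± 0.10 (2.09-fold, adjusted p = 1.04e-09), and by 0.80 after cyclic loess. ZFAS1 was higher by 0.46 and SNHG12 by 0.55, or 0.24 and 0.25 after cyclic loess, which left both called (adjusted p = 0.0348 and 0.0266). SNHG8 was lower by 3.92-fold, at -1.97 ± 0.10. The SNHG5 probes were called in opposite directions, the first at 0.61 and the second at -1.74. The first and second SNHG7 probes were higher by 0.41 and 0.51, calls lost after cyclic loess (0.14 and 0.20, adjusted p = 0.449 and 0.117). The third differed by -0.13, not called, and by -0.41 after cyclic loess, where it was called lower (adjusted p = 0.00560). The first SNHG7 probe's call was also lost without scramble replicate 1 or 3 untreated or scramble replicate 1 with DOX, at adjusted p of 0.0581 to 0.0643. SNHG7 is therefore given no direction with DOX in scramble cells. The median was 0.43 over the 10 probes and 0.17 over all tested probes.

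Under the si-hnRNP K label DOX went with 4 probes higher and 2 lower, against 36.5% and 17.0%, and with a median of 0.16 beside 0.15. SNHG8 was again lower, by 2.97-fold. The SNHG5 probes were called in opposite directions, the first higher by 0.52 (adjusted p = 2.06e-04) and the second at -1.69 (adjusted p = 2.83e-14). ZFAS1 was higher by 0.44 ± 0.09 (adjusted p = 1.60e-04), and by 0.24 after cyclic loess. SNHG1 was higher by 0.37 and the second SNHG7 probe by 0.47, and after cyclic loess these were 0.14 (adjusted p = 0.319) and 0.21 (adjusted p = 0.118).

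Under the si-PSTAR label, where both states lie in the same cluster, DOX went with 2 probes higher and 2 lower, against 7.29% and 6.61%. SNHG1 was higher by 0.36 ± 0.10 (adjusted p = 0.0191) and SNHG8 by 0.29 ± 0.10 (adjusted p = 0.0448). The SNHG8 call held in 13 of 26 alternative fits, that of SNHG1 in 23 of 26. For SNHG8 it was lost after cyclic loess (adjusted p = 0.0505), without the filter on dim probes (0.0660) and in the 12-array fit (0.0973). The second and the third SNHG7 probes were lower, at -0.37 ± 0.10 (adjusted p = 0.0172) and -0.37 ± 0.12 (adjusted p = 0.0359), and the median over the 10 was -0.13 beside 0.00359. None of these 4 calls was made when only the 6 compared arrays were fitted, or without the untreated si-PSTAR replicate 1, and 2 of the 4 were made without any 1 of the DOX arrays of that label. The DOX difference itself differed between the si-PSTAR and scramble labels for 8 probes, 2 higher and 6 lower, against 17.5% and 33.7%, and between the si-hnRNP K and scramble labels for 2, with 0 higher and 2 lower against 2.50% and 1.10%. After cyclic loess the share of all calls that were higher went from 34.1% to 62.4% in the first of these interactions and from 69.5% to 81.1% in the other, and 5 and 1 of the 10 probes were called.

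**Figure D4:**
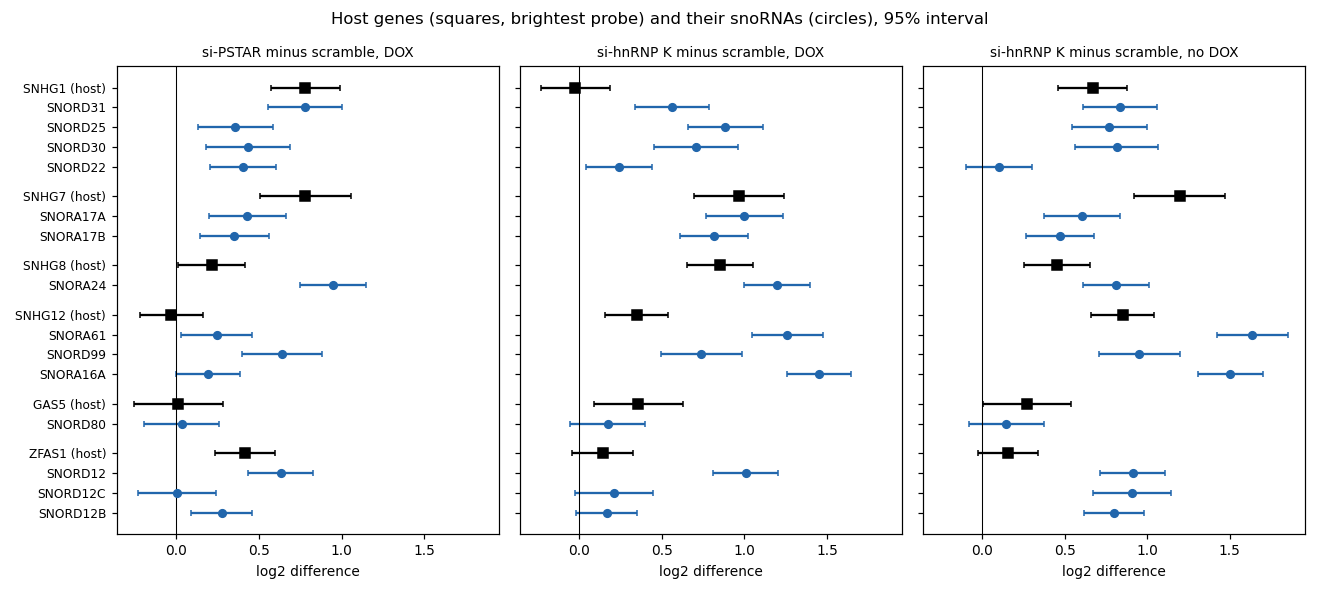
Log2 difference from scramble (x axis, with 95% interval) of the brightest probe of each host (black squares) and of the tested snoRNA probes in its introns (blue circles), for the 3 within-cluster comparisons. SNORA61 and SNORA16A reach 1.26 to 1.64 under the si-hnRNP K label while their host SNHG12 lies at 0.35 and 0.85.

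The array also carried probes annotated to the snoRNAs themselves: 26 of 31 listed snoRNAs of the 7 hosts had one, and 14 were bright enough to be tested, 4 from SNHG1, 2 from SNHG7, 1 from SNHG8, 3 from SNHG12, 1 from GAS5 and 3 from ZFAS1. The amplification kit named in the labels primes from poly(A) tails, which mature snoRNAs lack, so mature snoRNA and unspliced or other host RNA cannot be told apart in these probes. Under the si-hnRNP K label 12 were higher than scramble and 0 lower untreated, with a median of 0.81 beside 0.00278 over all named genes. The background was 16.2% higher and 15.7% lower, over the brightest probe of each of 12483 named genes. With DOX the si-hnRNP K label had 10 higher and 0 lower (backgrounds 19.0% and 19.0%, median 0.78), and the si-PSTAR label also had 10 higher and 0 lower (backgrounds 21.6% and 22.2%, median 0.38). The filter used the mean over all arrays, so a dim probe could pass through groups where it was high. SNORD12B averaged 6.58 in untreated si-hnRNP K arrays and 5.57 to 5.88 elsewhere, near the limit of 5.72. SNORD12C averaged 7.07 in untreated si-hnRNP K arrays and 5.54 to 6.17 elsewhere. SNORA17A and SNORA17B averaged 5.68 to 5.77 in scramble arrays, near that limit, and 6.03 to 6.71 in the siRNA-labelled groups. The filter thus helped set the places of these snoRNAs among those called higher. The counts and medians above include them and are descriptions only. SNORD80 passed through the groups of the first cluster, at 7.27 and 7.42, against 5.51 to 5.68 elsewhere.

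SNORA61, an H/ACA snoRNA of SNHG12, had the largest of these differences. It read 8.81, 8.99 and 8.68 in untreated scramble arrays and 10.42, 10.34 and 10.62 in untreated si-hnRNP K arrays, a difference of 1.64 ± 0.10 (adjusted p = 2.33e-12). With DOX it read 9.48, 9.26 and 9.25 in scramble and 10.74, 10.56 and 10.46 in si-hnRNP K arrays, a difference of 1.26. Its neighbours SNORA16A and SNORD99 were higher by 1.5 and 0.95 untreated and by 1.45 and 0.74 with DOX, where SNHG12 was higher by 0.85 and 0.35. The difference between host and snoRNA was not tested, here or for the pairs that follow.

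For SNHG7, SNORA17A and SNORA17B, related snoRNAs whose probes may share signal, were higher together with the host in the 4 siRNA comparisons. SNORA17A was higher by 1.0 and 0.43 with DOX under the si-hnRNP K and si-PSTAR labels and by 0.60 and 0.39 untreated, and SNORA17B by 0.81, 0.35, 0.47 and 0.38. Both probes were dim: scramble arrays averaged 5.77 untreated and 5.71 with DOX for SNORA17A, and 5.73 and 5.68 for SNORA17B. These lie at the array median of 5.73, so the sizes of the differences are not firm. For SNHG1, 3 of its 4 tested snoRNAs (SNORD25, SNORD30 and SNORD31) were higher under the si-hnRNP K label with DOX, by 0.88, 0.71 and 0.56, where the host itself was at -0.02. SNORD25 read 5.72, 6.04 and 6.10 in the scramble and 6.73, 6.84 and 6.94 in the si-hnRNP K arrays with DOX. With DOX in scramble cells SNHG1 was higher by 1.06 while SNORD25 and SNORD30 were lower, at -0.42 and -0.33.

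For ZFAS1, SNORD12 was higher under the si-hnRNP K label by 0.91 ± 0.10 untreated (adjusted p = 2.62e-08) and 1.01 ± 0.10 with DOX (adjusted p = 3.82e-09), where ZFAS1 was at 0.16 and 0.14 and not called. SNORD12B and SNORD12C were higher untreated, by 0.80 and 0.91, but not called with DOX, at 0.17 (adjusted p = 0.169) and 0.21 (adjusted p = 0.176). SNORD12 read 6.73, 6.63 and 6.71 in scramble and 7.89, 7.64 and 7.57 in si-hnRNP K arrays with DOX. For SNHG8, SNORA24 was higher by 1.20 and 0.81 under the si-hnRNP K label (DOX and untreated), and by 0.95 under the si-PSTAR label with DOX, where SNHG8 was at 0.21. SNORA24 did not follow its host across clusters: in untreated si-PSTAR arrays it was higher by 1.27 while SNHG8 was at -2.05. With DOX in scramble cells SNORA24 was at 0.29 and SNHG8 at -1.97. SNORD80 of GAS5 was split by cluster as SNHG8 was, at 7.07 to 7.68 in the 6 arrays of the first and 5.44 to 5.77 in the 12 of the second.

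Across clusters the tested snoRNAs went both ways, with 7 higher and 3 lower in untreated si-PSTAR arrays (backgrounds 43.4% and 22.5%), 3 and 4 with DOX in scramble cells (49.7% and 14.7%) and 4 and 7 with DOX under the si-hnRNP K label (44.8% and 13.0%). With DOX under the si-PSTAR label 2 were higher and 0 lower (9.09% and 6.90%). The lists below are read against the same backgrounds. Their values for untreated si-PSTAR arrays, and for DOX in scramble cells and under the si-hnRNP K label, are again across clusters.

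Other noncoding hosts were called in both directions with DOX. Of 21 listed, 13 had a probe and 12 were tested: 4 were higher and 2 lower under the si-PSTAR label with DOX, 5 and 1 under si-hnRNP K with DOX, and 6 and 0 under si-hnRNP K untreated. The 4 brightest were SNHG32, SNHG6, SNHG15 and SNHG9. SNHG15 was higher under the si-hnRNP K label by 0.73 with DOX and 0.65 untreated, and lower under si-PSTAR with DOX, at -0.27. SNHG32 was lower with DOX under both labels, at -0.64 (si-PSTAR) and -0.43 (si-hnRNP K). SNHG9 was higher under si-PSTAR with DOX by 0.51, and SNHG6 was at -0.10 and 0.00. In untreated si-PSTAR arrays 5 were higher and 2 lower, with DOX in scramble cells 4 and 3, under si-hnRNP K 5 and 1, and under si-PSTAR 0 and 4.

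Among protein-coding hosts, 34 of 40 were tested. Of these 13 were higher and 5 lower under si-PSTAR with DOX, 11 and 3 under si-hnRNP K with DOX, and 10 and 2 under si-hnRNP K untreated. The brightest were the ribosomal genes RPS12, RPLP2 and RPL27A and the translation-associated TPT1, all of which also start with an oligopyrimidine tract. None of these 4 was called in any of the 3 comparisons, with differences of -0.22 to 0.10. In untreated si-PSTAR arrays 13 were higher and 11 lower, and with DOX the counts were 12 and 11 (scramble), 10 and 11 (si-hnRNP K) and 0 and 1 (si-PSTAR).

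The proteins that assemble with snoRNAs moved in 1 direction where they were called against scramble. All 19 listed were tested: 9 were higher and 0 lower under si-PSTAR with DOX, 8 and 0 under si-hnRNP K with DOX, and 6 and 0 under si-hnRNP K untreated. Across clusters, 13 were higher and 0 lower in untreated si-PSTAR arrays, against 43.4% and 22.5% of named genes. The medians were 0.23, 0.25, 0.14 and 0.47, beside 0.01, -0.01, 0.00278 and 0.17 over all named genes. DKC1 (dyskerin, the pseudouridine synthase of H/ACA particles) was higher by 0.85, 0.49, 0.52 and 0.92 in the same order. NHP2, another H/ACA core protein, was higher by 0.26 under si-hnRNP K with DOX and by 0.42 in untreated si-PSTAR arrays, and at 0.14 and 0.05 in the others, not called. NOP10, also an H/ACA protein, and ZNHIT3, an assembly factor, were not called in these 4, with differences of -0.23 to 0.07. With DOX, 7 were higher and 2 lower in scramble cells, 8 and 2 under si-hnRNP K, and 0 and 0 under si-PSTAR.

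Nonsense-mediated decay factors, whose pathway degrades many spliced host RNAs, were tested for 16 of 20. Of these 8 were higher and 1 lower under si-PSTAR with DOX, 6 and 2 under si-hnRNP K with DOX, and 7 and 2 under si-hnRNP K untreated. In untreated si-PSTAR arrays, across clusters, the counts were 11 and 3. RNPS1 and CASC3, which act with the exon junction complex, were higher in all 4, RNPS1 by 0.56, 0.39, 0.61 and 1.08 and CASC3 by 0.41, 0.33, 0.44 and 1.28. EIF4A3, a core protein of that complex, was called in untreated si-PSTAR arrays alone among the 4, higher by 0.60. UPF2, a decay factor proper, was higher in untreated arrays of both labels, by 0.44 (si-hnRNP K) and 0.25 (si-PSTAR). With DOX the counts were 9 and 3 (scramble), 7 and 3 (si-hnRNP K) and 3 and 0 (si-PSTAR). Of 13 listed targets of the pathway, 12 were tested: 5 were higher and 2 lower, 6 and 2, 8 and 0, and 10 and 2 in the same 4 comparisons. ATF4, the transcription factor of the integrated stress response, was higher by 1.43 and 1.5 with DOX (si-PSTAR and si-hnRNP K) and by 0.75 in untreated si-hnRNP K arrays. Across clusters, ATF4 was lower in untreated si-PSTAR arrays, at -1.13. ATF3 was lower with DOX under both labels, at -0.41 and -0.45. GABARAPL1, an autophagy gene, was higher under si-PSTAR with DOX by 0.59. UPP1, uridine phosphorylase, was at -0.08 there and higher under si-hnRNP K by 0.33 with DOX and 0.30 untreated. With DOX, target counts were 7 and 1 (scramble), 7 and 1 (si-hnRNP K) and 5 and 2 (si-PSTAR).

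Among 12476 other named genes, those whose pattern over the 18 arrays was nearest to each host by Pearson's r were LMAN2L, MIR503HG and CLDN15 for SNHG1 (0.96 each) and BCL7B, SURF6 and PODXL2 for SNHG7 (0.97, 0.96 and 0.96). For SNHG8 they were RHOB, IQGAP1 and AVEN (0.99 each), and for ZFAS1 AKAP8L, DDX55 and HOXC9 (0.98, 0.98 and 0.97). For SNHG5, by its first probe, they were APOM, CIAO2B and TCF20 (0.95 each), for SNHG12 ST3GAL1, DUSP16 and TMEM18 (0.93, 0.93 and 0.92), and for GAS5 PRKCE, H3C8 and RMRP (0.79, 0.78 and 0.78). The Spearman correlations were 0.74 to 0.98. The arrays share groups and clusters, and with group means removed the values fell to between -0.01 and 0.74. Among the hosts SNHG1 and ZFAS1 correlated at 0.91 over the arrays and at -0.01 with group means removed. The 3 SNHG7 probes correlated at 0.89 to 0.90, and the 2 SNHG5 probes at -0.62.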

How the data were processed

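Gene expression was measured in 18 arrays, 3 in each of 6 groups, grouped by the siRNA and treatment in the sample labels. The deposited log2 intensities were used as given. That the authors' values are log2 and quantile normalized was read from the deposited values (sorted columns within 0.01 at 99.9955% of ranks); the sources used here name no software or background correction. Per the labels' protocols, total RNA was amplified with an Illumina TotalPrep kit. The design text gives 16 h of DOX and the treatment protocol 8 or 16 h; no value rests on it.

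Probes were named through the platform annotation (29511 with 1 symbol, 0 with several, 14450 with none). Probes whose mean reached the median of all probes (5.72) were tested with limma 3.58.1 in R 4.3.3: 6 group means over all 18 arrays, 12 residual and 13.98 prior degrees of freedom, 10 two-sided contrasts, and Benjamini-Hochberg adjustment over 21981 probes, called at 0.05. With 3 arrays against 3 an exact permutation test cannot go below 0.1, and none is reported. Errors after ± are SE for differences and SD for means. The number of arrays limits the precision.

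Every probe of the 7 genes was named. Each listed gene took its brightest probe, and the 4 brightest of a list were named whatever their change; snoRNA pairs were picked after their values were seen. The members and lists were chosen with earlier results of these data known. On simulated data for si-PSTAR against scramble with DOX (21981 probes, 200 changed), 100 of 100 changes of 1 and 63 of 100 changes of 0.5 on the log2 scale were called, with 5 false among 168 calls. The simulated noise was independent between arrays and had no clusters, and 8464 probes were called in the real comparison. These rates therefore need not hold for the reported tests. Alternatives were cyclic loess, other filters, 1 probe a gene, only the compared arrays, a replicate block, another prior, leaving out each array and, chosen after seeing the data, the 12 arrays of the larger cluster. Promoter sequences are from RefSeq, GRCh38.p14. Figures were drawn with matplotlib.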

Additional observations from a re-analysis of the deposited data

Results flagged for a closer look

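The difference between DOX and untreated arrays differed between the si-PSTAR and scramble labels for 8 of the 10 tested host gene probes. This was a test of the interaction (limma, adjusted over 21981 probes, 3 arrays in each of 4 groups). Of these probes 2 were higher and 6 lower, against 17.5% and 33.7% of all tested probes. The values are the DOX difference under the si-PSTAR label minus that in scramble arrays, on the log2 scale. For SNHG1 the value was -0.70 (adjusted p = 2.15e-04). The first SNHG5 probe was at -0.75 (adjusted p = 1.97e-04) and the second at 1.63 (adjusted p = 1.24e-10). The first and second SNHG7 probes were at -0.70 (adjusted p = 0.00302) and -0.88 (adjusted p = 1.99e-05). SNHG8 was at 2.26 (adjusted p = 1.51e-13), SNHG12 at -0.39 (adjusted p = 0.0151) and ZFAS1 at -0.52 (adjusted p = 0.00132). After cyclic loess 3 of these 8 calls were lost: the first SNHG7 probe at -0.44 (adjusted p = 0.0799), SNHG12 at -0.07 (adjusted p = 0.703) and ZFAS1 at -0.31 (adjusted p = 0.0635). Both states of the si-PSTAR label lie in 1 cluster of arrays and those of scramble in different clusters, so cluster and interaction cannot be told apart here.

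The DOX difference under the si-hnRNP K label minus that in scramble arrays differed for 2 probes, SNHG1 at -0.69 (adjusted p = 0.00608) and SNHG12 at -0.50 (adjusted p = 0.0292). Thus 0 were higher and 2 lower, against 2.50% and 1.10% of all tested probes. The SNHG12 call was lost after cyclic loess, at -0.44 (adjusted p = 0.0516), and SNHG1 stayed called, at -0.67 (adjusted p = 0.00845). Here both labels cross the clusters in the same way.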

How the results depend on the processing

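Counts of host gene probes called, out of 10, stayed within 1.5 times the reported count under most alternatives, with these exceptions. With 1 probe a gene (7 tested), 3 were called for si-PSTAR against scramble with DOX and 2 for DOX under the si-PSTAR label. That last comparison also gave 0 with only the compared arrays fitted, 1 in the 12 arrays of the larger cluster, and 0 to 4 without 1 array at a time. Cyclic loess gave 5 for the si-PSTAR interaction and 1 for the si-hnRNP K interaction, which ranged from 1 to 2 without 1 array at a time. There the SNHG12 call was lost without any 1 of 7 arrays, with adjusted p of 0.0566 to 0.116.

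Leaving out 1 array at a time gave 6 to 7 calls for si-PSTAR and 5 to 6 for si-hnRNP K against scramble with DOX. Untreated these were 9 to 10 and 6. For DOX in scramble cells and under si-hnRNP K they were 7 to 8 and 6. No called difference changed sign under any alternative run. Of 100 probe-by-comparison results, cyclic loess ended 11 calls and made 1.

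The replicate block changed none of the 100 calls; for example, 6 probes were called for si-PSTAR against scramble with DOX with and without it. Same-numbered arrays did not deviate together (correlations of -0.16 to 0.16 over 45 pairs, 5 above 0.1), so the numbers do not pair the samples. Over all probes the block gave 3142 calls in place of 3055 for DOX under si-PSTAR. GAS5 and the second ZFAS1 probe are limited by signal near background. So are the probes of SNORA17A, SNORA17B, SNORD12B, SNORD12C and SNORD80, each near the array median in some groups.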
